A study of Mus musculus with 6 samples.

Results

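Oxidative phosphorylation genes were examined for incomplete splicing in mouse neurons that received N40K, an N-terminal fragment of the U1 snRNP protein U1-70K. The genes were chosen by name alone: every scored gene whose symbol begins with Nduf, Uqcr, Cox4 to Cox8 or Atp5, plus the Sdh subunit genes and Cyc1. The rule took 88 of the 15705 scored genes. Of these, 36 belong to complex I, 4 to complex II, 9 to complex III, 17 to complex IV and 15 to complex V. A further 4 encode assembly factors of complex I, and 3 are other genes caught by their names: Atp5s, a coupling factor, Atp5sl, an assembly factor of complex I, and Cox4nb, which belongs to the ER membrane protein complex and is the neighbour of Cox4i1. The name Cox4nb therefore does not mark an oxidative phosphorylation gene, and it is given apart below.

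Cortical neurons of C57BL/6 mouse embryos at embryonic day 18 were given lentivirus on day 7 of culture and left with it for 3 days. The control group (3 libraries) received the vector FCK1.3GW, which carries EGFP behind a short CaMKII promoter. The N40K group (3 libraries) received FCK1.3GW-N40K, with N40K in the place of EGFP, so both groups carried a virus and neither was left untreated. The CaMKII promoter favours excitatory neurons, while RNA was taken from the whole culture, and neither the number of animals nor the share of transduced cells is given in the sources used here. Nothing in the labels tells whether each library came from its own culture, so the p-values rest on the spread among these libraries alone, which may be technical.

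Oxidative phosphorylation is the process by which mitochondria turn the electrons of nutrients into ATP. Complexes I and II pass electrons to ubiquinone, complex III passes them to cytochrome c, and complex IV hands them to oxygen, while complex V uses the proton gradient built on the way to make ATP. Neurons draw most of their ATP from it. Most of its subunits are encoded in the nucleus, transcribed as pre-mRNA and spliced, and U1 snRNP marks the start of each intron for that splicing. Subunits that mitochondrial DNA encodes are made from RNA without introns, and 0 of 13 of them had a score.

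The deposited value is the Sd (splicing deficiency) score, a ratio per gene and library in which a higher score stands for relatively more unspliced RNA. It is not an expression level, and a higher score can come from more unspliced or from less spliced RNA. Scores are written with steps of 0.0001, and for 24 of the 88 genes 1 step exceeded 5% of the mean score. The median over all genes of the ratio of mean scores, N40K over control, was 1.11. The library medians differed between groups by 0.13 on the log2(score + 0.01) scale, where the added 0.01 shrinks differences. All 10 neuron markers and all 6 astrocyte markers looked up had a score, as did 3 of 6 for microglia, 4 of 6 for the oligodendrocyte lineage and 3 of 4 for endothelial cells and pericytes. Scores of 2 microglial markers rose and that of 1 oligodendrocyte marker fell, where 21.5% of all genes rose and 4.11% fell. Of the scored markers of neurons, of astrocytes, and of endothelial cells and pericytes, 0 passed the test. A score does not give a cell type's abundance, and the part of other cell types in the results was not tested. Snrnp70, the gene of U1-70K, had scores of 0.0215, 0.0210 and 0.0223 in control libraries and 0.0242, 0.0224 and 0.0234 in N40K libraries (limma adjusted p = 0.376). This score does not measure the amount of N40K RNA and so does not check the labels.

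In the scores as deposited, oxidative phosphorylation genes changed little in N40K neurons. Of the 88 genes 3 rose and 5 fell (limma, Benjamini-Hochberg adjusted p under 0.05), and 80 did not pass. Over all scored genes 21.5% rose and 4.11% fell, so the share of 3.41% that rose here lay below the background and the share of 5.68% that fell lay near it. At an unadjusted p under 0.05, 7 of the 88 genes were higher, against 31.2% of all genes, and 11 were lower, against 7.32% of all genes. The 3 N40K scores exceeded every control score for 8 genes, against 33.6% of all genes, and were under every control score for 13 genes, against 8.67% of all genes. For the ratio of mean scores the median was 0.972, with a middle 50% from 0.876 to 1.02, where all genes had 1.11 with 0.955 to 1.41. It lay between 0.8 and 1.25 for 68 of the 88 genes (77.3%), and for 53.7% of all genes. The mean score was lower with N40K for 53 of the 88 genes, where 32.3% of all genes were lower. The median score of the 88 genes was 0.00465, 0.0044 and 0.00495 in control and 0.00375, 0.0038 and 0.00445 in N40K libraries, so the groups overlapped by 1 library each, while that of all genes ran from 0.0127 to 0.0136 in control and from 0.0146 to 0.0163 in N40K libraries. The median change was -0.01 on the log2(score + 0.01) scale, where all genes had 0.06.

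The balance of calls depended on scaling between libraries. Centring each library on its median gave 1 rise and 50 falls among the 88 genes (background 9.75% and 18.4%), quantile normalization 2 and 37 (background 12.9% and 12%), and removing each library's median deviation from the gene means 2 and 33 (background 14.2% and 9.67%). The mean scores of 61 of the 88 genes lay under the pseudocount of 0.01. There the pseudocount shrinks differences in score, while centring shifts every gene alike. The part of the pseudocount in these counts was not tested. Without a pseudocount, which left 64 genes, 2 rose and 3 fell as deposited (background 20.5% and 4.19%), and 2 rose and 11 fell after removing the median deviation (background 15.3% and 8.4%). After centring on the median without a pseudocount, 1 rose and 20 fell (background 12.8% and 11.8%). In each of these fits falls outnumbered rises among the oxidative phosphorylation genes. After each scaling between libraries, with or without a pseudocount, the share of them that fell lay above the background.

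Other settings moved the counts less. At pseudocounts of 0.001 and 0.1 the counts of 3 and 5 did not move, where 22.3% and 20.5% of all genes rose and 4.16% and 3.9% fell. With the 25% of genes of lowest score left out, 2 rose and 1 fell of the 41 that were left (background 16.7% and 4.1%), with the eBayes trend off 2 and 2 (16.8% and 3.43%), and over the 48 that overlap no other gene 1 and 3 (15.8% and 3.6%). Leaving out control replicate 1, 2 or 3 gave 2, 1 and 2 rises (background 12.9%, 10.3% and 10.4%) and 1, 3 and 2 falls (1.93%, 2.56% and 2.02%). Leaving out N40K replicate 1, 2 or 3 gave 4, 4 and 3 rises (23.7%, 13.3% and 15.1%) and 2, 2 and 4 falls (3.09%, 2.15% and 3.02%). In each of these fits the share of oxidative phosphorylation genes that rose lay below the background.

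**Figure D1:**
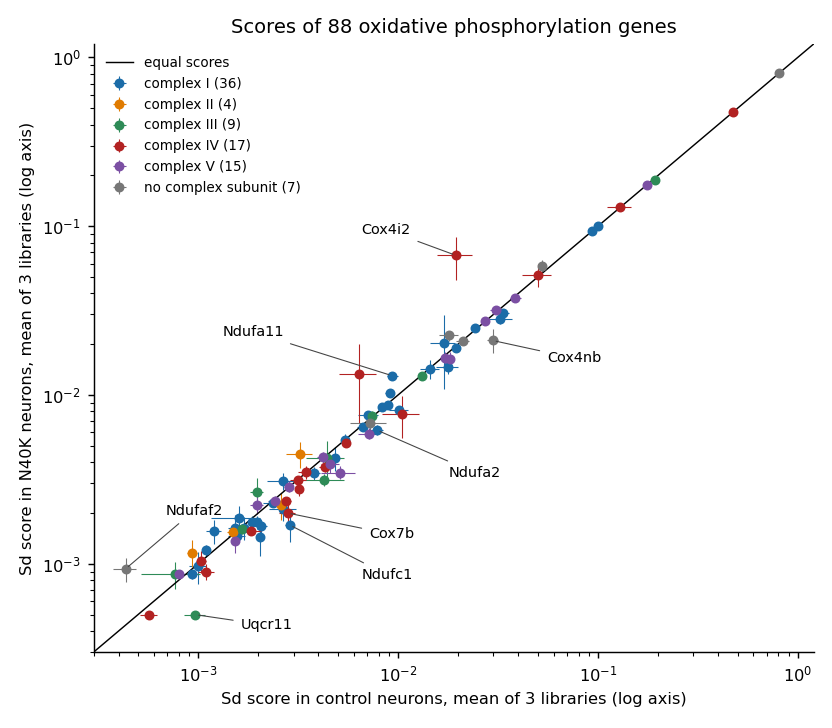
Mean Sd score in control neurons (x axis) and in N40K neurons (y axis) of the 88 genes, on log axes, coloured by complex; bars are the SD of 3 libraries and the line marks equal scores. Most genes lie on the line over scores from 0.0005 to 0.8, and the 8 labelled genes passed the test.

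The scores of these genes were low. Their median mean score was 0.00426, where all genes had 0.0148, and 64 of the 88 lay below the median of all genes and 47 in the lowest 25%. Replicates were close: the median coefficient of variation was 7.09% in control and 8.17% in N40K libraries, against 10% and 12.2% over all genes. The highest score belonged to Ndufaf3, an assembly factor gene of complex I, at 0.802 ± 0.0311 in control and 0.809 ± 0.0262 in N40K neurons (mean ± SD, n = 3). It overlaps Impdh2 in the annotation, where a read may belong to the one or the other. The lowest belonged to Cox6b1, a subunit gene of complex IV, with 0.0005, 0.0006 and 0.0006 in control and 0.0005 in each N40K library.

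The falls with the lowest adjusted p were in accessory subunits. Uqcr11, an accessory subunit gene of complex III, had scores of 0.0009, 0.0009 and 0.0011 in control libraries and 0.0005 in all 3 N40K libraries. The N40K scores all lay below the control scores, and rounding to 4 decimals allows a ratio from 0.443 to 0.6 around the 0.517 found. Its log2 change was -0.06 ± 0.01 (SE; limma adjusted p = 0.0108), a value that the pseudocount shrinks. Its call held in 14 of 15 alternative analyses and ended with the eBayes trend off (adjusted p = 0.131). Ndufc1, an accessory subunit gene of complex I, had 0.0029, 0.0030 and 0.0027 in control and 0.0021, 0.0014 and 0.0016 in N40K libraries. The groups did not overlap and the ratio was 0.593 (limma adjusted p = 0.0146), but the call ended without control replicate 1 or 2 (highest adjusted p = 0.0554).

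Cox7b and Ndufa2 fell by less. Cox7b, a subunit gene of complex IV on chromosome X, had 0.0029, 0.0025 and 0.0030 in control and 0.0017, 0.0022 and 0.0021 in N40K libraries, a ratio of 0.714 (limma adjusted p = 0.0372). Leaving out control replicate 1 or 3 or any N40K library, or the eBayes trend, ended its call (adjusted p up to 0.115). Ndufa2, an accessory subunit gene of complex I, had 0.0080, 0.0072 and 0.0083 in control and 0.0062, 0.0066 and 0.0058 in N40K libraries, a ratio of 0.791 (limma adjusted p = 0.0461). In both genes the groups stood apart without overlap. The call of Ndufa2 ended whichever library was left out (adjusted p up to 0.132). In the scores as deposited it also ended without a pseudocount, with the trend off and without the genes of lowest score (adjusted p up to 0.0586). Without a pseudocount it held after removing the median deviation and after centring on the median (adjusted p = 0.0181 and 0.0128). Ndufa2 overlaps Tmco6 in the annotation.

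The largest rise was in Cox4i2, the isoform of complex IV subunit 4 known from lung and from its response to oxygen. Its scores were 0.0166, 0.0180 and 0.0239 in control and 0.0846, 0.0465 and 0.0703 in N40K libraries. Every N40K score was above the highest control score, with a ratio of mean scores of 3.44 and a log2 change of 1.36 ± 0.21 (SE; limma adjusted p = 0.00877). The call held in all 19 alternative analyses (adjusted p from 0.00735 to 0.0393). By annotation the gene overlaps no other gene.

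Ndufa11 and Ndufaf2 also rose. Ndufa11, an accessory subunit gene in the membrane arm of complex I, had 0.0098, 0.0087 and 0.0096 in control and 0.0136, 0.0129 and 0.0125 in N40K libraries, a ratio of 1.39 (limma adjusted p = 0.0149). The call ended without control replicate 2 or 3, with library medians centred, with or without a pseudocount, and with quantile normalization (adjusted p up to 0.151), and the gene overlaps Vmac in the annotation. Ndufaf2, an assembly factor gene of complex I, had 0.0004, 0.0004 and 0.0005 in control and 0.0008, 0.0011 and 0.0009 in N40K libraries. These scores are a few steps of the last decimal, and rounding allows a ratio from 1.83 to 2.57 around the 2.15 found (limma adjusted p = 0.0153). Its call ended without control replicate 1 or 2, with the median deviation removed and with the trend off (adjusted p up to 0.948). With library medians centred its log2 change turned to -0.06 on the log2(score + 0.01) scale, where its scores lie far under the pseudocount. It was not fitted without a pseudocount. Ndufaf2 overlaps B230220B15Rik and Smim15 in the annotation.

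Cox4nb, the gene caught by its name, fell as well. Its scores were 0.0294, 0.0279 and 0.0319 in control and 0.0197, 0.0185 and 0.0249 in N40K libraries, a ratio of 0.707 (limma adjusted p = 0.043). Leaving out any library except N40K replicate 3 ended the call (adjusted p up to 0.127). It overlaps Cox4i1 in the annotation, whose own ratio was 0.855 with groups that did not overlap and an adjusted p of 0.0724. Without Cox4nb, 4 genes of the list fell.

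**Figure D2:**
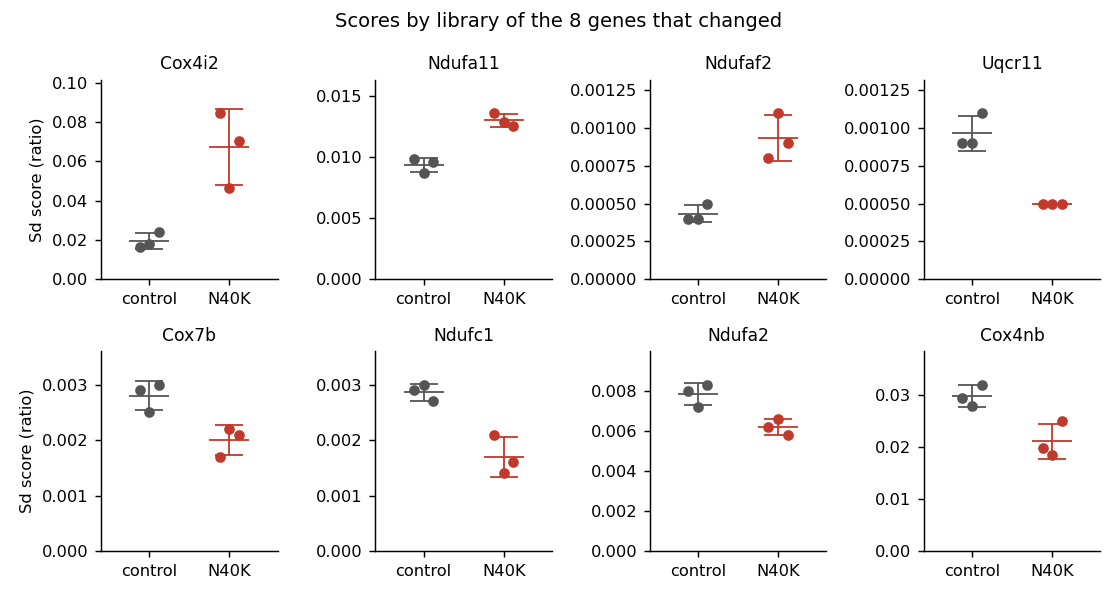
Sd scores in each library of the 8 genes that passed the test, one panel per gene with its own axis from 0; points are libraries, and the horizontal line and bars are the mean and SD of 3 libraries. Cox4i2, Ndufa11 and Ndufaf2 were higher in all N40K libraries, and the other 5 genes were lower in all of them.

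Exon ends of 6 of these genes are shown because U1 snRNA pairs with the last bases of an exon and the first bases of the intron. The intron bases come from a genome of the build used for the scores, which was not used here, so only the exon side is given. Each line is the end of a coding exon and the start of the next in the spliced transcript (GENCODE M21), 5′ to 3′, with the last 3 bases before the intron in capitals. Introns are numbered along the coding part. The first 5 lines are from genes that fell and the other 9 from the 3 genes that rose. The exon ends of Ndufa2 and Cox4nb, which also fell, are counted below but not printed.
Uqcr11 intron 1: ccagaaaCTGgattcccaca
Ndufc1 intron 1: ccgagctGCTcttcaacacg
Ndufc1 intron 2: gtggattTATctcatccaaa
Cox7b intron 1: cgtctccAAGttcgaagcat
Cox7b intron 2: atggacaTATacagccacac
Cox4i2 intron 1: ggagatgCTGctggcagcca
Cox4i2 intron 2: aaggtggCCTtgtaccggct
Cox4i2 intron 3: cgagtctATGtgttccctaa
Ndufa11 intron 1: ggcatttGCGgcataatcgg
Ndufa11 intron 2: ttcactgCAGctgctattgg
Ndufa11 intron 3: ggagctcGCActcacagcta
Ndufaf2 intron 1: aactggaGAGggcagactat
Ndufaf2 intron 2: gagtgggAAGcatggattag
Ndufaf2 intron 3: cactatgGAGgaaatactaa
Over all coding junctions, 173 of 352 exon ends (49.1%) of the oxidative phosphorylation genes closed with AG, the letters that match U1 there, and 56% of 147132 over all genes did. Among the genes that fell, 3 of 11 exon ends closed with AG, and among those that rose 4 of 9 did. These few junctions are a description, and nothing was drawn from them about U1 binding.

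Complex I, which oxidises NADH, had 1 rise and 2 falls among 36 subunit genes, where 21.5% of all genes rose and 4.11% fell. At an unadjusted p under 0.05, 2 of its genes were higher and 5 lower (31.2% and 7.32% of all genes). Its 7 core subunits, which hold the flavin and the iron-sulphur clusters, had 0 calls (limma) and 0 genes at an unadjusted p under 0.05 in either direction. Their ratios ran from 0.788 for Ndufs7, an iron-sulphur subunit near the quinone site, to 1.13 for Ndufs1, the largest iron-sulphur subunit. Ndufs1 had 0.0089, 0.0087 and 0.0096 in control and 0.01, 0.0099 and 0.0108 in N40K libraries, so its groups did not overlap, with an adjusted p of 0.188. Ndufs8, an iron-sulphur subunit, had the highest score of the complex and stayed close to it, with 0.101 ± 0.0025 in control and 0.0998 ± 0.000929 in N40K neurons. Ndufa9 had the lowest, with 0.000933 and 0.000867.

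The 29 accessory subunits of complex I, which surround the core, had a median ratio of 0.967, where the core had 0.968. Besides Ndufc1 and Ndufa2, the accessory genes with all N40K scores below the controls were Ndufb6, Ndufa5 and Ndufa6, with ratios of 0.705, 0.806 and 0.799 and adjusted p-values of 0.0553, 0.0769 and 0.0952. Ndufc2, whose product pairs with that of Ndufc1 in the membrane arm, had a ratio of 1.31 (adjusted p = 0.124), against 0.593 for Ndufc1. Ndufb7 showed 1 library far from the others of its group: 0.0310 in N40K replicate 1, with 0.0139 and 0.0157 in the other N40K libraries and 0.0141, 0.0181 and 0.0185 in control. Its ratio of 1.2 rested on that library.

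Complex II oxidises succinate and has all its subunits encoded in the nucleus. It had 0 calls among 4 genes (limma), where 21.5% of all genes rose and 4.11% fell. At an unadjusted p under 0.05, 1 gene was higher and 0 lower (31.2% and 7.32% of all genes). The higher gene was Sdhd, a membrane anchor, with 0.0038, 0.0030 and 0.0029 in control and 0.0047, 0.0036 and 0.0051 in N40K libraries. Its groups overlapped by 1 library each, and the adjusted p of its ratio of 1.38 was 0.106. The catalytic flavoprotein gene Sdha had the lowest scores of the complex, 0.000933 ± 5.8e-05 in control and 0.00117 ± 0.000208 in N40K neurons. The other membrane anchor, Sdhc, had a ratio of 0.859, and the iron-sulphur subunit gene Sdhb had 1.02, neither called.

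Complex III moves electrons from ubiquinol to cytochrome c. It had 1 fall, Uqcr11, and 0 rises among 9 genes, where 21.5% of all genes rose and 4.11% fell. At an unadjusted p under 0.05, 0 genes were higher and 1 lower (31.2% and 7.32% of all genes). The redox subunits of complex III had very different scores. Cyc1, the gene of cytochrome c1, had scores of 0.1900, 0.1874 and 0.1996 in control and 0.1861, 0.1854 and 0.1920 in N40K libraries. Uqcrfs1, the gene of the Rieske iron-sulphur protein, had 0.0010, 0.0005 and 0.0008, and 0.0007, 0.0009 and 0.0010. Groups overlapped in both. Uqcrb, an accessory subunit gene, had 0.0021, 0.0020 and 0.0018 in control and 0.0022, 0.0025 and 0.0033 in N40K libraries, and did not pass (ratio 1.36, adjusted p = 0.137). Uqcr10, another accessory subunit gene, had a ratio of 0.734 (adjusted p = 0.205), and the core protein genes Uqcrc1 and Uqcrc2 had 1.01 and 0.96.

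Complex IV, cytochrome c oxidase, includes subunits with a common and a tissue isoform. Its 11 common subunit genes had 0 rises and 1 fall, Cox7b, where 21.5% of all genes rose and 4.11% fell. Their median ratio was 0.868. At an unadjusted p under 0.05, 0 of them were higher and 3 lower (31.2% and 7.32% of all genes). Cox4i1, Cox6a1 and Cox8a had all N40K scores below all control scores, as Cox7b did, with ratios of 0.855, 0.855 and 0.865 that were not called (adjusted p = 0.0724, 0.214 and 0.129). Cox5a had a mean score of 0.00103 in both groups, and Ndufa4, first assigned to complex I, had a ratio of 0.818. Cox7a2l, a supercomplex factor counted with complex IV, had all N40K scores below all control scores. Its ratio of 0.939 was not called (adjusted p = 0.368). The 5 isoforms known from other tissues had ratios from 0.733 for Cox7a1 to 3.44 for Cox4i2. Cox7b2, the testis isoform of subunit 7B, had 0.0074, 0.0069 and 0.0049 in control and 0.01, 0.0092 and 0.0210 in N40K libraries. Its groups did not overlap, but N40K replicate 3 stood well above the rest and the ratio of 2.09 was not called (adjusted p = 0.128).

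Isoforms of one subunit had different scores. The muscle isoform gene Cox6a2 had 0.475 ± 0.012 in control and 0.474 ± 0.0139 in N40K neurons, while its common partner Cox6a1 had 0.00183 and 0.00157. The testis isoform gene Cox6b2 had 0.129 ± 0.0175 and 0.129 ± 0.00182, against 0.000567 and 0.0005 for Cox6b1. Whether the score is taken per length is not given in the sources used here, and Cox6a2 has 273 intron bases where Cox6a1 has 2769, so scores of different genes are set side by side without a test. Cox6a2 also overlaps Itgad in the annotation. For subunits 4 and 7B the common forms Cox4i1 and Cox7b had N40K to control ratios of 0.855 and 0.714, where the tissue forms Cox4i2 and Cox7b2 had 3.44 and 2.09. For subunit 7A the muscle form Cox7a1 had 0.733 and the common form Cox7a2 had 0.989. The difference within a pair was not tested.

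Complex V, the ATP synthase, had 0 calls among 15 genes (limma), where 21.5% of all genes rose and 4.11% fell. At an unadjusted p under 0.05, 0 of its genes were higher and 1 lower (31.2% and 7.32% of all genes). The ratios of 14 of its genes lay between 0.8 and 1.25. The catalytic beta subunit gene Atp5b had the highest scores of the complex, 0.1735, 0.1762 and 0.1791 in control and 0.1808, 0.1726 and 0.1750 in N40K libraries, with groups that overlapped and a ratio of 0.999. The other F1 genes had ratios of 1.02 for Atp5a1 and Atp5c1, 0.827 for Atp5d and 0.973 for Atp5e. Atp5o, a stalk subunit gene, had the lowest scores, with 0.0008 in each control library and 0.0008, 0.0009 and 0.0009 with N40K.

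Of the 3 genes that encode the same c subunit of the rotor ring, Atp5g2 was the one whose groups did not overlap. Its scores were 0.0048, 0.0043 and 0.0062 in control and 0.0034, 0.0032 and 0.0038 in N40K libraries, a ratio of 0.68 with an adjusted p of 0.0623. It passed the test after each scaling between libraries (adjusted p as low as 0.0099), as many of the 88 genes did. With library medians centred, quantile normalization and the median deviation removed, 50, 37 and 33 of them fell. Of all genes 18.4%, 12% and 9.67% fell there. Atp5g1 and Atp5g3 had ratios of 0.899 and 0.972 with adjusted p-values of 0.347 and 0.783. The difference between the 3 genes was not tested.

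**Figure D3:**
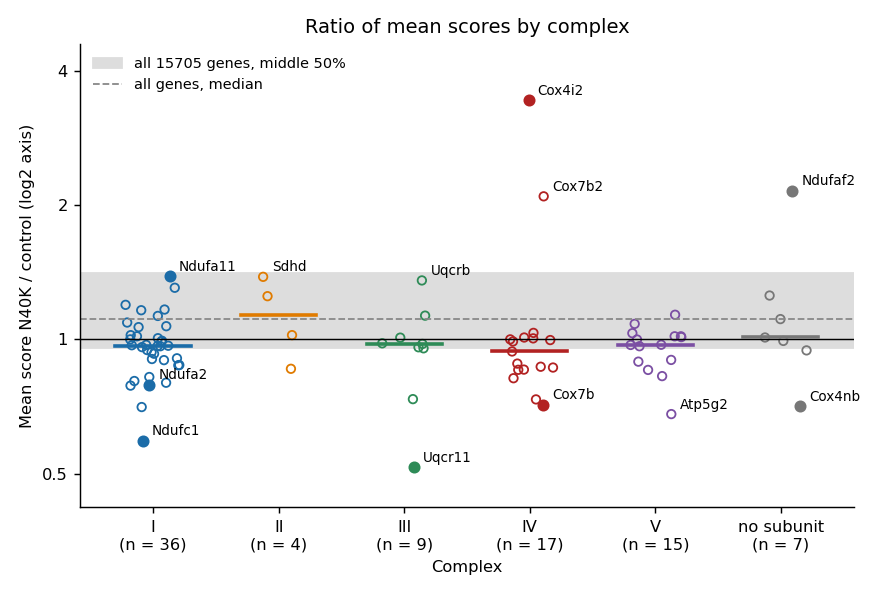
Ratio of mean Sd scores, N40K over control (log2 axis), of each gene by complex; filled points passed the test, coloured lines are medians, and the grey band and dashed line are the middle 50% and median of all genes. Medians of complexes I, III, IV and V lie from 0.939 to 0.977, below the 1.11 of all genes, and that of the 4 genes of complex II is 1.14.

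Medians of complexes I, III, IV and V lay below 1 and that of complex II above 1. The median ratio was 0.967 in complex I, 1.14 in complex II, 0.977 in complex III, 0.939 in complex IV and 0.973 in complex V. On the log2(score + 0.01) scale the median changes were -0.01, 0.02, -0.02, -0.01 and -0.01. Complex II rests on 4 genes, of which 3 had a ratio above 1. Its median score was 0.00215, 0.0019 and 0.0021 in control and 0.00175, 0.00175 and 0.00215 in N40K libraries. By that measure complex II was not higher with N40K. The median score of complex I genes was 0.00525, 0.00485 and 0.0053 in control and 0.00455, 0.005 and 0.0049 in N40K libraries, so the groups overlapped. Those of complex IV were 0.0037, 0.0031 and 0.0036 in control and 0.0032, 0.0035 and 0.0035 in N40K libraries, and overlapped too. Members of a complex are not replicates, and no test was made between complexes.

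Oxidative phosphorylation genes are short. Their median length was 7419 bases with 3 introns, where all genes had 25455 bases and 8 introns, and over all genes the share that rose grew with length, from 4.69% in the shortest 10% to 45.1% in the longest 10%. Of the 59 genes of at most 10 kb, 1 rose and 4 fell, or 1.69% and 6.78%, and of all genes of that length 6.87% rose and 6.34% fell. Of the 29 longer genes 2 rose and 1 fell, or 6.9% and 3.45%, and of all longer genes 26.3% rose and 3.34% fell. Sets of like length differed in score. The median mean score was 0.00433 in the 59 genes and 0.0619 in all genes of at most 10 kb. It was 0.00348 in the 29 genes and 0.0101 in all longer genes. Ndufs4, an accessory subunit gene of complex I that spans 100464 bases, had 0.0011 in each control library and 0.0011, 0.0012 and 0.0013 with N40K (ratio 1.09, adjusted p = 0.417). Ndufaf2 and Cox7b2, the other genes of over 100 kb, span 155909 and 105382 bases and had the ratios of 2.15 and 2.09 given above. Across genes, which share libraries and are not replicates, the ratio and the length had a Spearman rho of 0.2 over the 88 genes and 0.39 over 14914 genes. The part of length in the results was not tested.

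**Figure D4:**
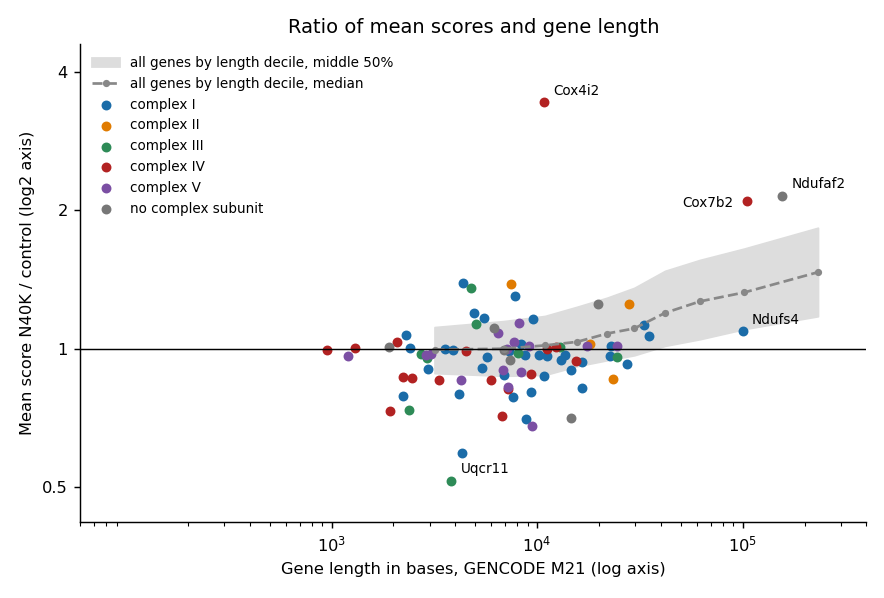
Ratio of mean Sd scores, N40K over control (log2 axis), against gene length (log axis) for the 88 genes, coloured by complex; the dashed line and grey band are the median and middle 50% of all genes in 10 classes by length. The line rises from 0.996 in the shortest class to 1.47 in the longest, and 59 of the 88 genes are at most 10 kb long.

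Genes that build and serve the complexes without being subunits were taken as 3 related lists. Of 44 scored assembly factors outside the name rule, 9 rose and 4 fell (20.5% and 9.09%), where 21.5% of all genes rose and 4.11% fell. The 9 include Pet112l, which belongs to another process (limma adjusted p = 0.00712). Taco1, which drives translation of a mitochondrial subunit of complex IV, fell from 0.014 ± 0.00159 to 0.00573 ± 0.000751 (mean ± SD, n = 3; limma adjusted p = 0.0038). 1810063B05Rik, now named Coa6 and needed for copper delivery to complex IV, rose from 0.0187 ± 0.00337 to 0.0427 ± 0.00127 (adjusted p = 0.00431). Ttc19, an assembly factor of complex III, rose 1.64-fold (adjusted p = 0.00632). The calls of these 3 genes held in all 18 alternative analyses in which they had a value, while the number of rises in the list moved between 5 and 9 wherever all 44 genes were fitted. In the annotation Taco1 overlaps Taco1os, 1810063B05Rik overlaps Tarbp1, and Ttc19 overlaps Gm12275 and Ncor1.

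Of 29 scored genes of electron carriers, quinone synthesis and ATP exchange, 5 rose and 1 fell (17.2% and 3.45%, against 21.5% and 4.11% of all genes). Pdss2, which makes the side chain of ubiquinone, rose from 0.00317 ± 0.000231 to 0.00593 ± 0.000404 (limma adjusted p = 0.00337). Dhodh, which feeds electrons to ubiquinone from pyrimidine synthesis, rose 1.56-fold, which was no longer called with library medians centred, with quantile normalization, with either scaling without a pseudocount, or without control replicate 2 or 3 or N40K replicate 2 (adjusted p up to 0.108). Vdac3, a pore of the outer membrane, rose 1.38-fold, which was no longer called under any scaling with the pseudocount (adjusted p from 0.308 to 0.385). With library medians centred its log2 change was -0.04. Without a pseudocount that centring gave 0.24 (adjusted p = 0.0738), and removing the median deviation gave 0.32 (0.0341). Of 27 scored regulators of mitochondrial biogenesis and mitochondrial DNA expression, 6 rose and 2 fell (22.2% and 7.41%, against the same 21.5% and 4.11%). Lrpprc, which stabilises mitochondrial mRNAs, rose 2.05-fold (adjusted p = 0.00401) and Esrrg, a nuclear receptor that drives oxidative genes, 2.56-fold (0.0059), the latter not called with library medians centred (0.0872). Mterfd2, which acts in the mitochondrial ribosome, fell to 0.431 of control (0.0206) but was not called without control replicate 1 or 2 or N40K replicate 2 or 3 (up to 0.067). By annotation Mterfd2 overlaps Sned1, and Pdss2, Lrpprc and Esrrg overlap other genes, while Dhodh and Vdac3 overlap none. The related lists hold longer genes, with medians of 13044.5, 17331 and 27176 bases.

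**Figure D5:**
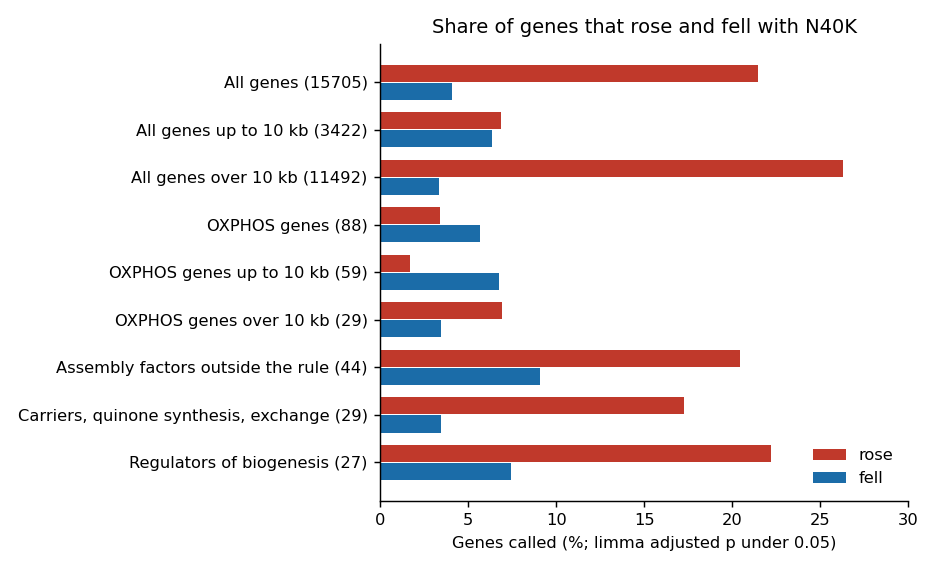
Share of genes whose Sd score rose (red) or fell (blue) with N40K at a limma adjusted p under 0.05, for all genes, the oxidative phosphorylation (OXPHOS) genes and the related lists, with the number of genes in brackets. OXPHOS genes rose in 3.41% of cases, below the 21.5% of all genes, and the related lists rose in 17.2% to 22.2%.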

How the data were processed

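Poly(A) RNA of 6 libraries was made into stranded libraries and read as pairs of 100 nt, per the labels' protocols. Per the submitters' processing notes, the build was mm9 and the tools were bedtools 2.16.1, STAR, BWA and CASAVA, none with a stated role. The authors deposited 1 table of scores that behave as a linear ratio, while the formula, filters, annotation, use of strand and depth behind them were not given in the sources used here, so no interval that needs depth is printed. All 6 columns were matched to libraries by name, 0 were left unused, and no 2 libraries were identical.

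The log2(score + 0.01) of all 15705 genes was fitted in limma 3.58.1 (R 4.3.3) with an eBayes trend. P-values of the 2-sided test were adjusted by Benjamini-Hochberg across the whole table, and 0.05 was the threshold. The filter (a score above 0 in at least 3 libraries) removed no gene. The fit without it, counted among the alternative analyses of each gene, therefore repeats the main fit. Log2 changes understate low scores, so ratios of mean scores are given. "Rose" and "fell" mean called in the scores as deposited. The steps were tested on simulated data.

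The members, gene lists and alternatives were chosen with earlier results of these data known. Named were all called members, per complex those with the extreme ratio without overlap of groups or the extreme score, up to 3 called genes per related list, and Snrnp70; other members were named after their values were seen. Of the related lists' entries, Mtf1 and Pet112l belong to other processes. Older symbols were matched by Ensembl identifier. Lengths, overlaps and exon ends came from GENCODE M21 on another build than mm9, matched by Ensembl identifier for 14914 genes (95%), so coordinates are left out. Of the 88 genes 40 overlap another gene, 4 of them called, and some have processed pseudogenes that can share reads.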

Additional observations from a re-analysis of the deposited data

How the results depend on the processing

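The counts of 3 rises and 5 falls did not move with pseudocounts of 0.001 or 0.1. Leaving out the filter could not move them, as it removed no gene. Rises were 1 with library medians centred, with or without a pseudocount, 1 with the replicate block (background 11.3%), 1 over the 48 genes that overlap no other, and 1 to 4 with a library left out, with 1 without control replicate 2. Falls were 50, 37 and 33 with library medians centred, quantile normalization and median deviations centred; 3, 20 and 11 without a pseudocount as deposited, with medians centred and with median deviations centred, the last pair chosen after seeing the data; 1 without the lowest 25% of genes, 2 with the replicate block (background 2.09%), 2 with the trend off, 3 without overlapping genes, and 1 to 4 with a library left out. Only N40K replicate 3 could be left out with falls within 1.5 times of 5. The median log2 change of -0.0086 was -0.0279 at a pseudocount of 0.001, -0.1389, -0.0931 and -0.0741 under the scalings in the order above, and -0.0317, -0.2600 and -0.1827 without a pseudocount. Genes with all N40K scores higher were 3, 4 and 4 under the scalings of log2(score + 0.01) (15.6%, 20.6% and 22.8% of all genes) and 8 to 13 with a library left out (36.1% to 42.4%). Genes with all lower were 71, 61 and 56 (33.9%, 25.02% and 21.2%), and 14 to 24 (10.3% to 14.0%). With library medians centred on the log2(score + 0.01) scale, the log2 change turned to -0.0629 for Ndufaf2, -0.0492 for Uqcrb and -0.0410 for Vdac3. The same centring without a pseudocount gave 0.1929 for Uqcrb and 0.2396 for Vdac3, so their sign did not turn there. Ndufaf2 was not fitted without a pseudocount. The replicate block is a fit on shared numbers alone: deviations of same-numbered libraries correlated at -0.0712, 0.0376 and -0.0201, and 2 of 6 libraries correlated best with their own number. The block ended the calls of Cox7b, Ndufa2, Ndufa11, Ndufaf2, Cox4nb and, in the related lists, Mterfd2 (adjusted p = 0.0514, limma). With library medians centred, rises in the related lists moved from 9, 5 and 6 to 5, 1 and 1 and falls from 4, 1 and 2 to 10, 9 and 5, where 9.75% of all genes rose and 18.4% fell. The causes were not tested, other than fewer genes or libraries in a fit.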
